A study of Homo sapiens with 12 samples.

Results

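The epidermal growth factor (EGF) receptor family and its ligands were examined in HLE-B3 cells, an immortalized human lens epithelial cell line, as 9 genes taken by name from the 58735 genes of the deposited tables. They were 3 receptors, EGFR, ERBB2 and ERBB3, and 6 ligands, HBEGF, AREG, EREG, TGFA, BTC and NRG1. RNA was sequenced from 12 libraries in 4 groups of 3 biological replicates. WT_0h and Atg7KO_0h were untreated parental and Atg7 knockout cells, and WT_12h and Atg7KO_12h were the same cells after 12 h in 200 μM H2O2. The knockout was made with CRISPR/Cas9, single clones were picked and checked by western blot, and the labels do not say which clone or clones were sequenced. Untreated cells were collected at 0 h, so that the effect of H2O2 and that of 12 h in culture cannot be told apart. Because the RNA is from bulk cultures, fewer cells of a kind and less RNA per cell cannot be told apart either. The p-values measure only the spread between the libraries of a group.

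The receptors of this family sit in the plasma membrane and signal as dimers. The ligands are made as membrane-anchored precursors that metalloproteinases of the ADAM family release. HBEGF, AREG, EREG, TGFA and BTC bind EGFR, and NRG1 binds ERBB3 and ERBB4. ERBB2 has no ligand of its own and serves as the partner of the others, and ERBB3 has little kinase activity and signals through its partners. In lens epithelium, growth factors of this kind are known to drive proliferation and migration through the RAS-ERK and PI3K-AKT cascades.

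The library totals ranged from 15602183 to 17659496 reads assigned to genes. Atg7KO_0h replicate 1 stood apart from its own replicates. Its genes of at least 8000 bases lay 0.398 below them on the log2 scale as a median (-0.398), its genes shorter than 2000 bases lay 0.319 above, and its counts differed from theirs with a chi-square per degree of freedom of 77.2 and 75.5, against 2.08 to 4.38 for the other pairs within a group. ATG7 mRNA was not reduced in the knockout libraries, at 2.55 ± 0.313 FPKM (fragments per kilobase of gene, scaled to sequencing depth; SD, n = 3) in WT_0h, 1.96 ± 0.0411 in WT_12h, 3.55 ± 0.205 in Atg7KO_0h and 2.19 ± 0.137 in Atg7KO_12h, so the transcript does not check the knockout label. Of the 11 lens epithelial markers, 4 or 5 had a mean above 1 FPKM in each group. CDH2 and VIM were at 97.9 FPKM or more in every library, PAX6 was at 0.505 to 1.35 FPKM, and FOXE3, CRYAA, AQP1 and CDH1 stayed at or below 0.106 FPKM. Of 7 fibroblast markers, 3 or 4 had a mean above 1 FPKM in each group, and their summed FPKM, 623 to 655 in WT_0h, 270 to 287 in WT_12h, 360 to 512 in Atg7KO_0h and 247 to 257 in Atg7KO_12h, was nearly all COL1A1. COL3A1 and DCN were at or below 0.0683 FPKM, and LUM had means of 0.168, 0.129, 9.52 and 3.93 FPKM in the same order of groups. The sum of 5 leukocyte markers was 2.23 to 2.79 in WT_0h, 3.77 to 4 in WT_12h, 8.12 to 8.25 in Atg7KO_0h and 9.53 to 9.87 in Atg7KO_12h, through LCP1 (means of 1.54, 3.14, 4.4 and 6.51) and CD74 (0.707, 0.719, 3.68 and 3.06), with PTPRC at or below 0.119 in every library. The sum of 3 keratinocyte markers was at most 0.217 in WT libraries and 0.5 to 0.655 in Atg7KO_12h, through DSG3 (mean 0.416) and KRT14 (0.156), with KRT5 at or below 0.0408. The part of these markers in the results was not tested.

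After 12 h of H2O2, the ligand mRNAs HBEGF, AREG and EREG rose in both WT and Atg7KO cells. AREG rose 256-fold in WT and 356-fold in Atg7KO cells, and HBEGF rose 12.9-fold in WT and 4.93-fold in Atg7KO cells. In treated cells, AREG was 2.78-fold higher and HBEGF 2.20-fold lower in Atg7KO than in WT. The HBEGF response was the single member response that differed between the genotypes at an adjusted p below 0.01 by edgeR's test of the difference itself, with ERBB2 just short of it at 0.0112. Among the receptors, EGFR lay between 0.946-fold and 1.32-fold in the 4 pairwise comparisons, while ERBB2 fell 1.87-fold and the scarce ERBB3 2.97-fold over 12 h in WT. At 12 h ERBB3 was 3.90-fold lower in Atg7KO (2 to 12 reads per library) than in WT (26 to 32 reads).

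**Figure D1:**
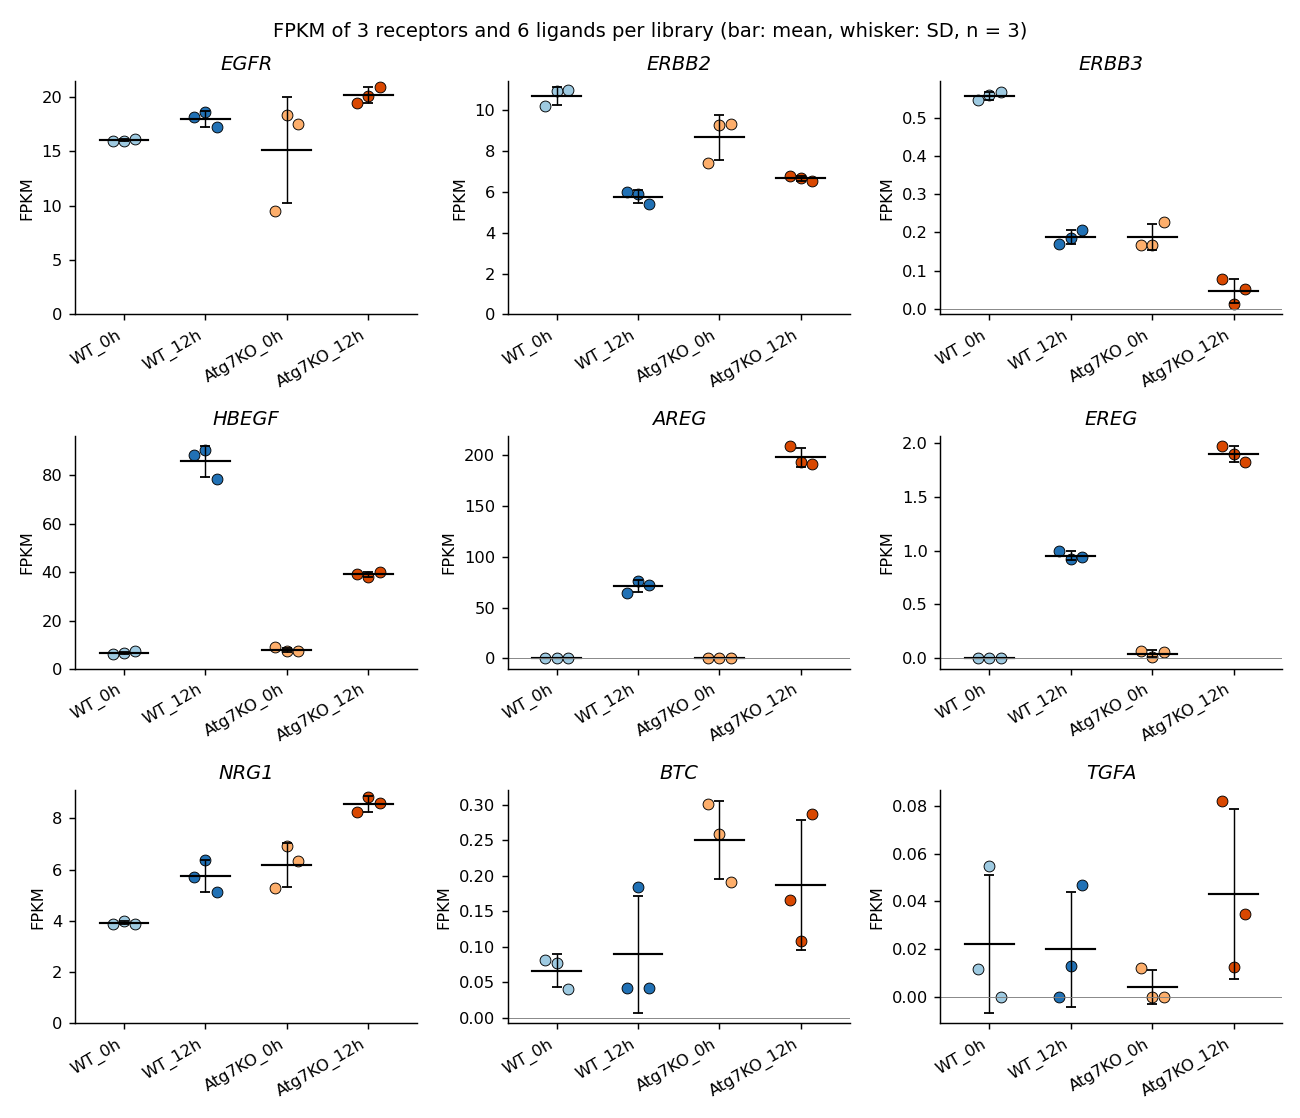
FPKM (y axes, linear, each with its own range) of the 9 genes in the 12 libraries, with 1 panel per gene, 1 point per library, a bar for the mean and a whisker for the SD (n = 3). HBEGF, AREG and EREG are higher in every 12 h library than in every 0 h library, and the low EGFR point in Atg7KO_0h, at 9.515 FPKM, is replicate 1.

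The 250 bases before the start sites of HBEGF, AREG and EREG are shown so that the promoters of the 3 ligands that rose in both genotypes by edgeR's test can be compared. They were read from the RefSeq promoter table of GRCh38.p14, which held 7 of the 9 genes, and each is written 5′ to 3′ on the strand of its gene with the motif matches in capitals. The RefSeq start of HBEGF lies inside the span that the deposited table gives for the gene. The AREG window is chr4:74444886-74445135 (plus strand), the EREG window is chr4:74364895-74365144 (plus strand) and the HBEGF window is chr5:140346604-140346853 (minus strand).
AREG: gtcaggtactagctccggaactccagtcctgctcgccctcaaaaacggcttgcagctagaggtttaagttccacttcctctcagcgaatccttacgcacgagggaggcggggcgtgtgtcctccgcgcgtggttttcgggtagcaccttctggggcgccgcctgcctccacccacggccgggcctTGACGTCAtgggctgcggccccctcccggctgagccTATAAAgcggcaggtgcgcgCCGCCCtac
EREG: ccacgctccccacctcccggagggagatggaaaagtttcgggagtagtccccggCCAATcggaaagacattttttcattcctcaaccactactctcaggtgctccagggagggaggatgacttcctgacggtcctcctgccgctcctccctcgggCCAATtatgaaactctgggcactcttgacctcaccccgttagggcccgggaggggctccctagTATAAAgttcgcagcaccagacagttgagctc
HBEGF: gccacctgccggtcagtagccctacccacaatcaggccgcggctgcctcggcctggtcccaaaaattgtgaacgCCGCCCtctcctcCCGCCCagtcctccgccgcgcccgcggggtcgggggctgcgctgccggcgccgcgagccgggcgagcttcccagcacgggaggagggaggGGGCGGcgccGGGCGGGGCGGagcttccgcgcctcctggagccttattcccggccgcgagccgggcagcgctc
The windows were searched on both strands. A TATA box (TATAAA), held by 10.7% of 35116 promoter windows of the same length, began 29 bases before the start in AREG and 32 bases before it in EREG. A cAMP response element (TGACGTCA), held by 1.65% of all windows, began 65 bases before the start in AREG. A GC box (GGGCGG, in 42.6% of all windows) stood 9 bases before the start in AREG and at 5 places in HBEGF, some of them overlapping. A CCAAT box (CCAAT, in 32% of all windows) stood 196 and 95 bases before the start in EREG. HBEGF held neither TATA box nor cAMP response element and had a GC content of 76.4%, against 65.2% for AREG and 58% for EREG. The AP-1 site (TGANTCA), in 6.57% of all windows, and the core of the antioxidant response element (TGACNNNGC), in 10.9%, were matched in none of these 3 windows. A match describes the letters and not a bound factor.

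EGFR (ENSG00000146648), the shared receptor of the EGF-like ligands, lies on chromosome 7 at 55019021 to 55211628 of GRCh38 and had 1965 to 4538 reads in each library. Its FPKM were 15.92, 15.99 and 16.09 in WT_0h, 18.16, 18.57 and 17.20 in WT_12h, 9.515, 18.32 and 17.53 in Atg7KO_0h, and 19.41, 20.11 and 20.89 in Atg7KO_12h. Every Atg7KO_12h value lay above every WT_12h value, every WT_12h value above every WT_0h value, and Atg7KO_0h spanned the range of WT_0h because of replicate 1. The 12 h libraries of Atg7KO exceeded those of WT by 0.16 on the log2 scale (SE 0.0389, edgeR's quasi-likelihood test, Benjamini-Hochberg adjusted p = 0.000761), and WT_12h exceeded WT_0h by 0.16 (SE 0.0442, adjusted p = 0.00118 by the same test). These small differences were sensitive to the handling of gene length: with an offset for the relation between fold change and gene length, the difference between the genotypes at 12 h was -0.06 (adjusted p = 0.161 by edgeR), and the response of WT was 0.45 (adjusted p = 2.05e-12 by edgeR). With 1 fit over all 12 libraries, neither difference passed (edgeR adjusted p = 0.485 and 0.47). The 12 h difference between the genotypes also did not pass with limma (adjusted p of 0.0133 to 0.0445) or with upper quartile scaling (edgeR adjusted p = 0.0102). The WT response also lost its call without WT_0h replicate 1, WT_12h replicate 1 or WT_12h replicate 2 (adjusted p of 0.011 to 0.0153). At 0 h the genotypes differed by -0.08 (95% interval -0.635 to 0.475, edgeR adjusted p = 0.836), and without Atg7KO_0h replicate 1 by 0.17 (edgeR adjusted p = 0.000771). The response of Atg7KO was 0.41 (SE 0.239, edgeR adjusted p = 0.211), and without that library 0.16 (edgeR adjusted p = 6.11e-05).

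ERBB2 (ENSG00000141736), the receptor without a ligand of its own, lies on chromosome 17 at 39687914 to 39730426. Its FPKM were 10.21, 10.95 and 10.97 in WT_0h and 5.999, 5.890 and 5.408 in WT_12h, and 7.396, 9.292 and 9.341 in Atg7KO_0h and 6.774, 6.688 and 6.551 in Atg7KO_12h. In each genotype all treated libraries were below all untreated ones. In WT cells it fell by 0.90 on the log2 scale (SE 0.0548, edgeR adjusted p = 1.46e-19). In Atg7KO cells the difference was -0.39 (SE 0.117, edgeR adjusted p = 0.0344), and without Atg7KO_0h replicate 1 it was -0.50 (edgeR adjusted p = 8.21e-20). The responses of the genotypes differed by 0.52 (95% interval 0.234 to 0.795), with an edgeR adjusted p of 0.0112 that missed the threshold of 0.01. Leaving out Atg7KO_0h replicate 1 took that adjusted p to 2.05e-06 with a difference of 0.42 by edgeR, and leaving out replicate 2 or 3 of that group took it to 0.00773 and 0.00679. DESeq2 also called the difference (adjusted p = 0.00191), as did edgeR without the filter (adjusted p = 0.0041). With the gene length offset the difference was 0.18 (edgeR adjusted p = 0.143). Of 22 alternatives, 5 passed and 17 did not. The difference between the genotypes at 12 h was 0.20 (edgeR adjusted p = 0.00125), and with the gene length offset it was 0.03 (edgeR adjusted p = 0.659). It also did not pass with 1 fit of all 12 libraries (edgeR adjusted p = 0.0859) or with limma (adjusted p of 0.0135 to 0.0375). On the opposite strand MIEN1, with 160 to 448 reads, overlaps the end of ERBB2 and PGAP3, with 90 to 154 reads, overlaps its start, and since the strand setting of the counting is not given, reads of these genes could have been counted in part for the others.

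ERBB3 (ENSG00000065361; chromosome 12, 56076799 to 56103505), the kinase-poor receptor of neuregulins, was low in all libraries. Its FPKM were 0.5459, 0.5593 and 0.5669 in WT_0h, 0.1696, 0.1868 and 0.2058 in WT_12h, 0.1677, 0.1676 and 0.2271 in Atg7KO_0h, and 0.07754, 0.01347 and 0.05101 in Atg7KO_12h. The WT_0h libraries stood above all others, and the Atg7KO_12h libraries, with 2 to 12 reads, below all others. Atg7KO cells had less at 0 h (log2 fold change -1.57, SE 0.195, edgeR adjusted p = 0.00223) and at 12 h (-1.96, SE 0.401, adjusted p = 7.99e-05). The 0 h call was lost without any single WT_0h library or without Atg7KO_0h replicate 2 (edgeR adjusted p of 0.0117 to 0.0178) and with a replicate block (adjusted p = 0.0106). WT cells lost it over 12 h (-1.57, SE 0.215, edgeR adjusted p = 1.12e-08), and in Atg7KO cells the difference was -1.97 with an edgeR adjusted p of 0.0149, or -2.04 with 7.06e-06 without Atg7KO_0h replicate 1. Between the genotypes at 12 h, and in the Atg7KO response, ERBB3 passed the filter on low counts only through the group where it was higher. All 4 group means were under 1 FPKM, so no ERBB3 difference met the study's thresholds as applied here (adjusted p below 0.01, a log2 fold change beyond 1 and more than 1 FPKM). The FPKM limit was read here as a group mean above it in at least 1 of the groups compared.

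HBEGF (ENSG00000113070; chromosome 5, 140332843 to 140346631), heparin-binding EGF-like growth factor and the ligand with the GC-rich promoter above, was the most abundant ligand in untreated cells. Its FPKM were 6.274, 6.449 and 7.220 in WT_0h and 88.37, 90.52 and 78.52 in WT_12h. In Atg7KO they were 8.920, 7.401 and 7.445 at 0 h and 39.36, 38.10 and 39.90 at 12 h. Every treated WT library was above every treated Atg7KO library, and the untreated groups lay close together, with Atg7KO just above WT. The rise was 3.68 on the log2 scale in WT (SE 0.0619, edgeR adjusted p = 1.19e-40) and 2.30 in Atg7KO (SE 0.105, edgeR adjusted p = 2.14e-05). The Atg7KO response was smaller by 2.61-fold (difference -1.38, SE 0.128, 95% interval -1.66 to -1.11, edgeR adjusted p = 3.06e-05). At 12 h the genotypes differed by -1.14 (SE 0.0452, edgeR adjusted p = 1.06e-19), and at 0 h by 0.25 (SE 0.118, edgeR adjusted p = 0.186).

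AREG (ENSG00000109321; chromosome 4, 74445134 to 74455009), amphiregulin, went from under 1 FPKM in untreated cells to the leading ranks of all genes in treated cells. Its FPKM were 0.1741, 0.3629 and 0.2733 in WT_0h, from 5 to 11 reads, and 64.62, 76.22 and 71.82 in WT_12h, from 1806 to 2036 reads. They were 0.4783, 0.4767 and 0.6883 in Atg7KO_0h, from 13 to 21 reads, and 209, 193.5 and 191.4 in Atg7KO_12h, from 5238 to 5897 reads. The 4 groups did not overlap, with Atg7KO above WT at each time. By mean FPKM, 16654 genes were at or above AREG in WT_0h and 542 in WT_12h, and 14138 in Atg7KO_0h and 114 in Atg7KO_12h. The rise was 8.0 on the log2 scale in WT (SE 0.127, 256-fold with a 95% interval of 214 to 305, edgeR adjusted p = 9.7e-43) and 8.47 in Atg7KO (SE 0.168, 356-fold with an interval of 270 to 468, edgeR adjusted p = 2.51e-06). The responses differed by 0.47 with an interval from -0.201 to 1.15 (edgeR adjusted p = 0.331), which spans a response in Atg7KO of 0.87 to 2.22 times that of WT. On the log2(FPKM + 1) scale, where the pseudocount exceeds the untreated levels, the difference was 1.19 (limma adjusted p = 0.000108). At 12 h the Atg7KO level was higher by 1.48 (SE 0.0478, edgeR adjusted p = 1.83e-19). At 0 h the difference was 1.01 (SE 0.384, edgeR adjusted p = 0.115), based on 24 reads in the 3 WT and 48 in the 3 Atg7KO libraries. AREG passed the filter on low counts in the WT response only through WT_12h, and between the genotypes at 0 h only through Atg7KO_0h.

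EREG (ENSG00000124882; chromosome 4, 74365143 to 74388751), epiregulin, neighbours AREG and shares with it a TATA box near the start. No read was assigned to it in the 3 WT_0h libraries, and 97, 81 and 93 reads in WT_12h, 6, 1 and 6 in Atg7KO_0h, and 193, 178 and 181 in Atg7KO_12h. As FPKM these were 1.0, 0.9203 and 0.9457 in WT_12h, 0.0636, 0.0098 and 0.0567 in Atg7KO_0h and 1.972, 1.895 and 1.825 in Atg7KO_12h. All treated libraries exceeded all untreated ones, and all treated Atg7KO libraries exceeded all treated WT ones. Against a floor of 3 reads over the WT_0h group, EREG was at least 93.6-fold higher in WT_12h. In Atg7KO the ratio was 42.4 (counting interval 24.6 to 80.1, which covers counting error only), and edgeR gave a log2 fold change of 5.41 (SE 0.346, adjusted p = 5.95e-05). At 12 h it was 0.98 higher in Atg7KO (SE 0.128, edgeR adjusted p = 6.88e-08). EREG passed the filter on low counts in the response comparisons only through the treated libraries, and between the genotypes at 0 h it did not pass the filter. Without the filter the fitted 0 h difference was 5.17 (edgeR adjusted p = 0.0561). With 1 fit of all 12 libraries, where EREG was kept only through the treated libraries, it was 5.13 (edgeR adjusted p = 0.00448). Both rest on 13 reads in Atg7KO_0h and 0 in WT_0h. The fitted difference of the responses, -4.14 with an edgeR adjusted p of 0.0216, depends on how the empty WT_0h group is handled, and on the log2(FPKM + 1) scale it was 0.51 (limma adjusted p = 0.000498). Without Atg7KO_0h replicate 2 the fitted difference was -4.61 (edgeR adjusted p = 0.00306).

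NRG1 (ENSG00000157168; chromosome 8, 31639386 to 32767959), neuregulin 1, is a ligand of ERBB3. It had FPKM of 3.895, 4.002 and 3.887 in WT_0h, 5.715, 6.387 and 5.122 in WT_12h, 5.267, 6.921 and 6.342 in Atg7KO_0h, and 8.244, 8.834 and 8.594 in Atg7KO_12h. The WT_0h libraries were lowest and the Atg7KO_12h libraries highest, with the other groups overlapping between them. It rose in WT by 0.54 on the log2 scale (SE 0.0645, edgeR adjusted p = 4.74e-10) and was higher in Atg7KO at 12 h by 0.57 (SE 0.0578, edgeR adjusted p = 1.18e-09). At 0 h the genotypes differed by 0.65 (SE 0.123, edgeR adjusted p = 0.0119), and without Atg7KO_0h replicate 1 by 0.76 (edgeR adjusted p = 8.92e-27). The response in Atg7KO was 0.46 (SE 0.121, edgeR adjusted p = 0.0192), and without that library 0.36 (edgeR adjusted p = 1.65e-11). The responses differed by -0.08 (95% interval -0.391 to 0.238, edgeR adjusted p = 0.717), and with the gene length offset by -0.45 (edgeR adjusted p = 0.00866).

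BTC (betacellulin, ENSG00000174808, chromosome 4, 74744759 to 74794686) and TGFA (transforming growth factor alpha, ENSG00000163235, chromosome 2, 70447280 to 70554193) were near the detection limit. BTC had 2 to 4 reads in the WT_0h libraries, 2 to 8 in WT_12h, 10 to 14 in Atg7KO_0h and 5 to 14 in Atg7KO_12h. TGFA had 0 to 7 reads in every library. TGFA passed the filter on low counts in none of the comparisons. BTC passed it in the Atg7KO response (log2 fold change -0.41, SE 0.426, edgeR adjusted p = 0.467) and in the comparison of the responses (-0.78, SE 0.854, edgeR adjusted p = 0.512). At 0 h the BTC reads did not overlap between the genotypes, and without the filter the difference was 1.88 on the log2 scale (edgeR adjusted p = 0.0494), or 1.87 with 1 fit of all 12 libraries (edgeR adjusted p = 0.0268). At these read numbers no BTC or TGFA difference passed at 0.01 in the comparisons run.

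Members were counted against all genes tested in each comparison. At 0 h, 1 of 6 members tested was lower in Atg7KO (ERBB3) and 0 were higher by edgeR's test, where 2 were higher at an unadjusted p below 0.05, 1 by DESeq2 and 0 by limma. Among all 15357 genes tested, 4.42% were higher and 3.28% lower, and 3.5% met the study's thresholds, which no member did. At 12 h, 5 of 7 members were higher in Atg7KO (EGFR, ERBB2, AREG, EREG and NRG1) and 2 lower (ERBB3 and HBEGF), where 27.7% of all genes were higher and 27.9% lower. DESeq2 gave the same counts. By limma on log2(FPKM + 1) 3 were higher and 2 lower, and EGFR and ERBB2 did not pass (adjusted p = 0.0135 for each). HBEGF and AREG met the study's thresholds there, as 7.46% of genes did. ERBB3 passed the filter on low counts there only through WT_12h.

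Over 12 h in WT, 5 of 7 members rose (EGFR, HBEGF, AREG, EREG and NRG1) and 2 fell (ERBB2 and ERBB3), against 30.9% of genes higher and 30.1% lower. HBEGF and AREG met the study's thresholds, which 12.5% of genes did. AREG in WT, and EREG in each genotype, passed the filter on low counts only through the treated libraries, where they were high. In Atg7KO cells 3 of 8 rose (HBEGF, AREG and EREG) and 0 fell by edgeR (2 at an unadjusted p below 0.05, 1 by DESeq2 and 0 by limma), against 13.6% higher and 12.4% lower, and the same 3 met the study's thresholds, which 11.2% of genes met. For the difference of the responses, 1 of 8 members was lower (HBEGF) and 0 were higher by edgeR (1 at an unadjusted p below 0.05, 1 by DESeq2 and 2 by limma), against 7.02% higher and 7.01% lower, with 5.17% meeting the study's thresholds. The median log2 fold change of the members tested was 0.0854 at 0 h and 0.203 at 12 h between the genotypes, 0.54 in WT and 0.435 in Atg7KO over time, while the median of all genes lay between -0.032 and 0.00552 in these comparisons. Without Atg7KO_0h replicate 1, 7 members passed in the Atg7KO response, 4 at 0 h and 2 in the comparison of the responses. The shares of all genes passing without that library are not given here, so these counts have no background beside them.

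**Figure D2:**
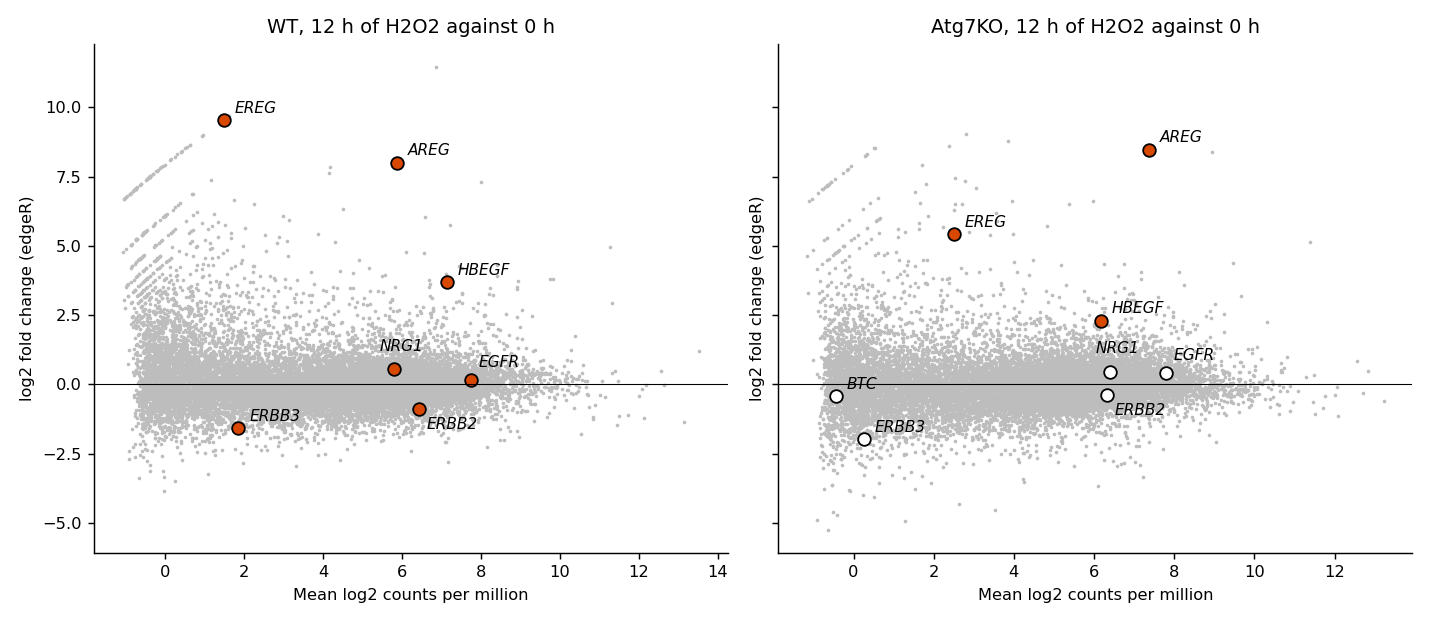
The log2 fold change of 12 h against 0 h (y axis) over mean log2 CPM (x axis) for all genes tested in WT (left) and Atg7KO (right), with members as large circles, filled where the adjusted p was below 0.01. AREG lies at 8.0 and 8.47 and HBEGF at 3.68 and 2.30, and the EREG point on the left is a fitted value against a group without reads.

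**Figure D3:**
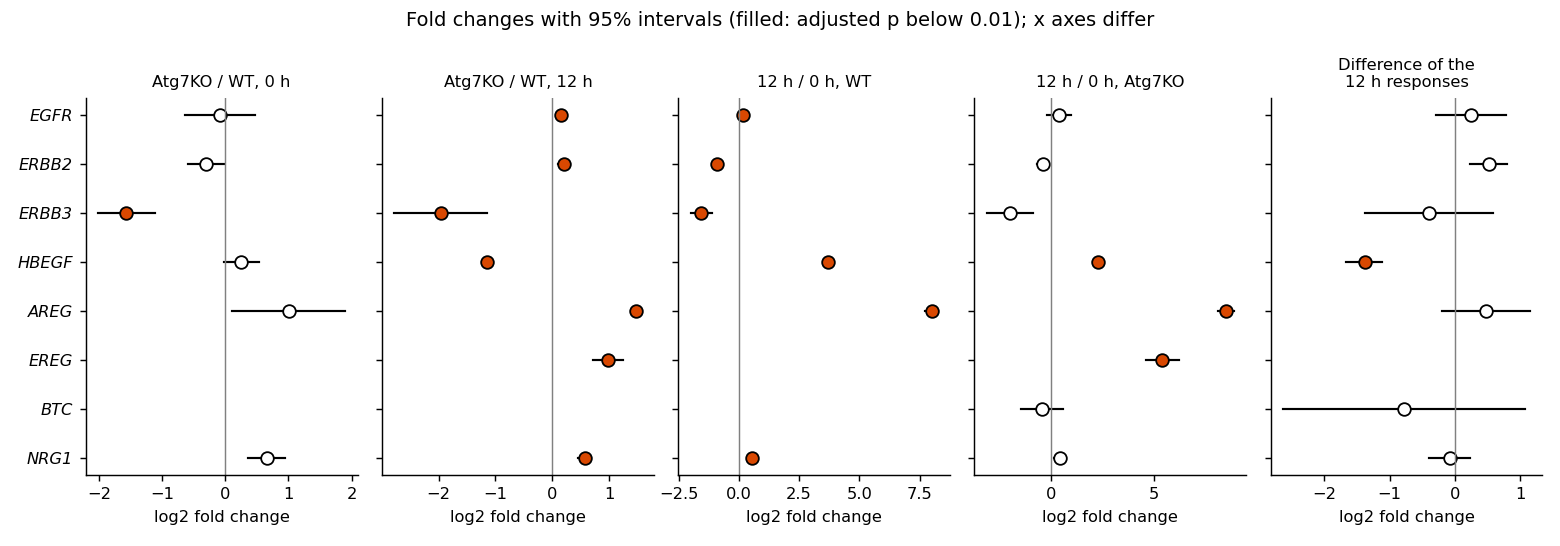
The log2 fold changes (x axes, each with its own range) of the members tested, with their 95% intervals, in the 4 pairwise comparisons and for the difference of the 12 h responses (Atg7KO minus WT), filled where the adjusted p was below 0.01. EREG is left out of the WT response and of the difference because WT_0h had no reads, and in the last panel HBEGF, at -1.38, is the filled point.

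The order of the 9 genes by mean FPKM changed with treatment. Untreated WT cells had EGFR first (16 ± 0.0827 FPKM, SD, n = 3), then ERBB2 (10.71 ± 0.432), HBEGF (6.648 ± 0.503), NRG1 (3.928 ± 0.0643), ERBB3 and AREG, and only BTC, TGFA and EREG overlapped with their neighbours. Untreated Atg7KO cells kept EGFR, ERBB2, HBEGF and NRG1 in the leading places, and there ERBB2 (8.677 ± 1.11) and HBEGF (7.922 ± 0.865) overlapped. In WT_12h HBEGF (85.8 ± 6.4) led AREG (70.89 ± 5.86), and both exceeded EGFR (17.98 ± 0.7). ERBB2 and NRG1 overlapped in that group. In Atg7KO_12h AREG (198 ± 9.6) led HBEGF (39.12 ± 0.922) and EGFR (20.14 ± 0.739) without overlap.

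The summed FPKM of the 6 ligands was 10.9 ± 0.5 (SD, n = 3) in WT_0h, 163 ± 9.45 in WT_12h, 14.9 ± 0.208 in Atg7KO_0h and 248 ± 9.81 in Atg7KO_12h. HBEGF made up 60.7% ± 2.22 of that sum in WT_0h, 52.5% ± 2.6 in WT_12h, 53% ± 5.51 in Atg7KO_0h and 15.8% ± 0.656 in Atg7KO_12h. AREG made up 2.46% ± 0.827, 43.4% ± 2.72, 3.67% ± 0.866 and 79.9% ± 0.802 in the same order. Treated WT cells thus carried HBEGF and AREG mRNA in like amounts, and treated Atg7KO cells mostly AREG. NRG1 fell from 36% ± 1.74 of the sum in WT_0h to 3.51% ± 0.21 in WT_12h while its own level rose. The FPKM ratio of the 5 EGFR ligands among the members to EGFR was 0.438 ± 0.0287 in WT_0h, 8.77 ± 0.281 in WT_12h, 0.651 ± 0.329 in Atg7KO_0h and 11.9 ± 0.889 in Atg7KO_12h. In Atg7KO_0h it was 1.03 in replicate 1, where EGFR was low, and 0.445 and 0.478 in replicates 2 and 3. The EGFR ligands EGF and epigen (EPGN), which are not members, are not in these sums. These sums are of mRNA and were given as descriptions without a test.

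**Figure D4:**
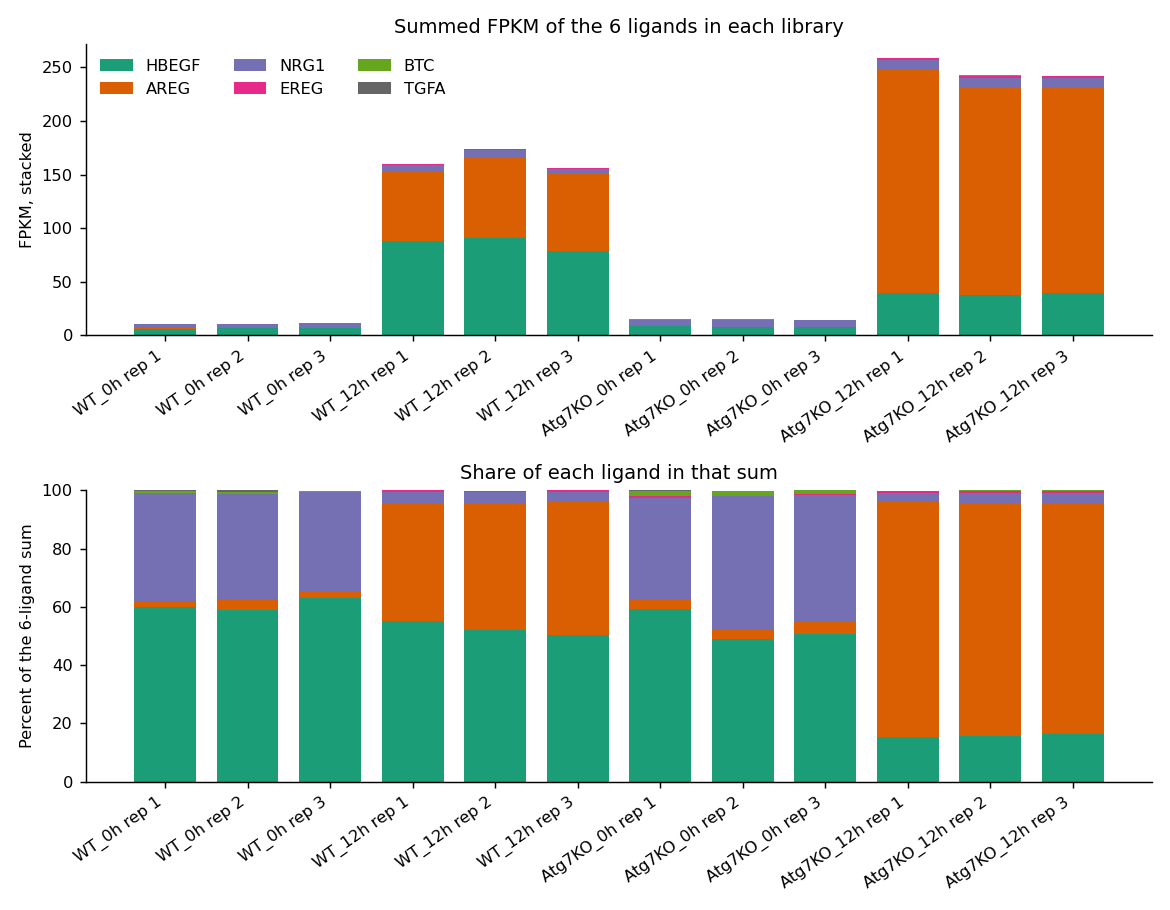
Stacked FPKM of the 6 ligands in each of the 12 libraries (upper panel) and the percent each ligand takes of that sum (lower panel). The sum is 10.4 to 11.4 FPKM in the WT_0h libraries and 242 to 259 FPKM in the Atg7KO_12h libraries, where AREG takes 79.1% to 80.7%.

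The genes whose log2 CPM were most like those of a member over the 12 libraries were found among 13306 genes. The values are descriptions, since the 12 libraries fall into 4 groups and share their depth and treatment. For HBEGF they were CD83 (Pearson r = 0.9987), with mean FPKM of 8.19, 48.7, 9.36 and 26.6 in WT_0h, WT_12h, Atg7KO_0h and Atg7KO_12h, and SOX4 (r = 0.9961). For AREG they were PLCL2 (r = 0.9956) and AEN (r = 0.9956), the latter with 3.91, 24.9, 3.91 and 33.4 FPKM in the same order. For EREG they were SNAI2 (r = 0.994) and SMIM13 (r = 0.9938). The receptors had ACTN1 (r = 0.9933) and FNDC3B (r = 0.9858) beside EGFR and TBC1D4 (r = 0.9898) and C6orf89 (r = 0.9888) beside ERBB2. NRG1 had SNX9 (r = 0.9864) and KIF21B (r = 0.9794).

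The other genes of the pathway were taken as 5 lists with 64 genes, and their counts are set beside the shares of all genes tested. SPRY2 and SPRY4 stand in both the feedback list and the ERK output list and are counted in each, so these lists are not independent. Between the genotypes at 0 h, 7 of 56 tested were higher in Atg7KO and 3 lower (4.42% and 3.28% of all genes), and at 12 h 31 of 59 were higher and 15 lower (27.7% and 27.9%). Over time 27 of 58 rose and 18 fell in WT (30.9% and 30.1%), and 18 of 56 rose and 5 fell in Atg7KO (13.6% and 12.4%). For the difference of the responses 10 of 59 were higher and 8 lower (7.02% and 7.01%). Without Atg7KO_0h replicate 1, the counts passing at 0 h, in the Atg7KO response and in the difference were 28, 44 and 30. The shares of all genes passing in those fits are not given here, so these counts have no background beside them.

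Of the 6 other receptors and ligands of the family, 2 were tested in each response. EGF itself, at 1.162 ± 0.116 FPKM (SD, n = 3) in WT_0h, fell in WT by 1.18 on the log2 scale (edgeR adjusted p = 5.16e-08) and in Atg7KO by 1.62 (edgeR adjusted p = 0.000738). Epigen (EPGN), another EGFR ligand, had 0 reads in WT_0h, 3 to 6 in WT_12h, 1 to 5 in Atg7KO_0h and 19 to 26 in Atg7KO_12h. Its 12 h level was 2.29 higher in Atg7KO (edgeR adjusted p = 2.95e-05), and it rose in Atg7KO by 2.74 (edgeR adjusted p = 0.00324), a call lost without any single Atg7KO_12h library (adjusted p of 0.0148 to 0.019). NRG4 rose in WT by 1.73 (edgeR adjusted p = 0.00191), from 3 to 8 reads to 14 to 16 reads, a call lost without WT_0h replicate 1 or 3 (adjusted p of 0.0184 and 0.0176). EPGN passed the filter on low counts in each comparison named only through Atg7KO_12h, and NRG4 only through WT_12h. ERBB4, the remaining receptor, had at most 15 reads in any library.

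Among the 8 genes of ligand release, 4 rose and 2 fell in WT and 2 rose and 1 fell in Atg7KO, where 30.9% of all genes rose and 30.1% fell in WT and 13.6% and 12.4% in Atg7KO. TIMP3, an inhibitor of ADAM metalloproteinases, had 0.541 ± 0.1 FPKM in WT_0h, 1.976 ± 0.137 in WT_12h, 3.141 ± 0.501 in Atg7KO_0h and 8.633 ± 0.139 in Atg7KO_12h (SD, n = 3). It was higher in Atg7KO at 0 h (log2 fold change 2.54, edgeR adjusted p = 0.000406) and at 12 h (2.12, edgeR adjusted p = 8.37e-20), and rose in WT (1.86, edgeR adjusted p = 2.67e-13) and in Atg7KO (1.45, edgeR adjusted p = 0.000263). ADAM10, a sheddase, rose in Atg7KO by 0.51 (edgeR adjusted p = 0.00252), a call lost without any single library other than Atg7KO_0h replicate 1 (adjusted p of 0.0105 to 0.0204), and with the gene length offset the difference was 0.33 (edgeR adjusted p = 0.0997). RHBDF2, which carries the sheddase ADAM17 to the surface, rose in WT by 0.71 (edgeR adjusted p = 8.02e-12). The 2 genes that fell in WT were ADAM9 (log2 fold change -0.68, edgeR adjusted p = 1.4e-19) and ADAM12 (-0.82, adjusted p = 1.08e-19). ADAM9 also fell in Atg7KO (-0.69, edgeR adjusted p = 0.00126), a call lost without any single Atg7KO_12h library (adjusted p of 0.0109 to 0.0144). ADAM12 was lower in Atg7KO than in WT at 12 h (-0.94, edgeR adjusted p = 3.61e-16).

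Of the 14 feedback inhibitors and turnover genes, 13 were tested in WT, where 8 rose and 4 fell, and 12 in Atg7KO, where 4 rose and 1 fell, against 30.9% and 30.1% of all genes in WT and 13.6% and 12.4% in Atg7KO. ERRFI1, which binds and inhibits the EGFR kinase, had 10.18 ± 0.172 FPKM in WT_0h, 19.95 ± 1.21 in WT_12h, 9.868 ± 0.719 in Atg7KO_0h and 9.393 ± 0.464 in Atg7KO_12h (SD, n = 3). It rose in WT by 0.96 (edgeR adjusted p = 1.46e-19), was 1.09 lower in Atg7KO at 12 h (log2 fold change -1.09, edgeR adjusted p = 6.29e-17), and its responses differed by -1.04 (edgeR adjusted p = 7.59e-05). SPRY4, a Sprouty inhibitor of the RAS-ERK cascade, rose in WT by 3.08 (edgeR adjusted p = 8.72e-19) and in Atg7KO by 1.78 (edgeR adjusted p = 0.000391), with a difference of -1.31 (edgeR adjusted p = 0.00142). SPRY1 was lower in Atg7KO at 12 h (-2.47, edgeR adjusted p = 2.5e-09), with 67 to 70 reads in WT_12h and 8 to 18 in Atg7KO_12h. SPRY1 passed the filter on low counts in that comparison only through WT_12h.

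Of the 28 adaptors and signal carriers, 27 were tested in WT, where 7 rose and 10 fell, and 26 in Atg7KO, where 5 rose and 2 fell, close to the shares of all genes in WT (30.9% and 30.1%) and in Atg7KO (13.6% and 12.4%). SOS1, the exchange factor that links the receptors to RAS, fell in WT by 1.05 (edgeR adjusted p = 1.34e-20), and its responses differed by 1.16 (edgeR adjusted p = 0.0019). GRB7, an adaptor that binds ERBB2, had 2 to 3 reads in WT_0h, 16 to 26 in WT_12h, 2 to 5 in Atg7KO_0h and 0 to 1 in Atg7KO_12h. HRAS rose in WT by 1.57 (edgeR adjusted p = 4.4e-26) and PIK3R1, a regulatory subunit of PI3K, by 1.29 (edgeR adjusted p = 7.71e-15). STAT3 rose in Atg7KO by 1.15 (edgeR adjusted p = 0.00132) and in WT by 0.63 (edgeR adjusted p = 9.22e-17), with a difference of 0.53 that did not pass (edgeR adjusted p = 0.0305).

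The 10 ERK output genes, transcripts known to follow ERK activity, had the largest medians of the 5 lists in both responses. In WT 9 rose and 1 fell, against 30.9% and 30.1% of all genes (median log2 fold change 2.19 against -0.00535 for all genes). In Atg7KO 8 rose and 0 fell by edgeR (1 lower at an unadjusted p below 0.05, 0 by DESeq2 and limma), against 13.6% and 12.4% of all genes. The median in Atg7KO was 1.73 against -0.032 for all genes. The ERK phosphatase DUSP6 had 1.835 ± 0.152 FPKM in WT_0h, 13.72 ± 0.628 in WT_12h, 5.657 ± 1.15 in Atg7KO_0h and 18.18 ± 0.256 in Atg7KO_12h (SD, n = 3), and it rose by 2.89 in WT (edgeR adjusted p = 1.06e-32) and 1.68 in Atg7KO (edgeR adjusted p = 0.000198). PHLDA1 rose by 3.23 in WT (edgeR adjusted p = 5.35e-29) and 2.40 in Atg7KO (edgeR adjusted p = 2.14e-05). EPHA2 rose by 2.69 and 2.16, CCND1 by 1.48 and 1.57 and SPRY2 by 1.70 and 1.24 in WT and Atg7KO (edgeR adjusted p of at most 0.000287). At 0 h 5 of the 10 were already higher in Atg7KO and 0 lower by edgeR (1 lower at an unadjusted p below 0.05, 1 by DESeq2 and 0 by limma). Among all genes 4.42% were higher and 3.28% lower, and the list median was 0.971 against 0.00552. The 5 included DUSP4, higher by 2.54 (edgeR adjusted p = 0.000252), and DUSP6, by 1.62 (edgeR adjusted p = 0.00107). DUSP6 lost that call without any single WT_0h library (adjusted p of 0.0105 to 0.0115), and ETV4 without WT_0h replicate 3 (0.0108). SPRY2, 0.93 higher (edgeR adjusted p = 0.00548), lost its call without any single library other than Atg7KO_0h replicate 1 (adjusted p of 0.0121 to 0.0347) and with the replicate block (0.013). At 12 h 6 were higher and 2 lower in Atg7KO, against 27.7% and 27.9% of all genes. The responses of 5 were smaller in Atg7KO and that of 1 larger (median difference -0.667), where 7.01% of all genes were lower and 7.02% higher. DUSP6 differed by -1.21 (edgeR adjusted p = 0.000413) and EPHA4 by 1.36 (edgeR adjusted p = 0.00189).

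**Figure D5:**
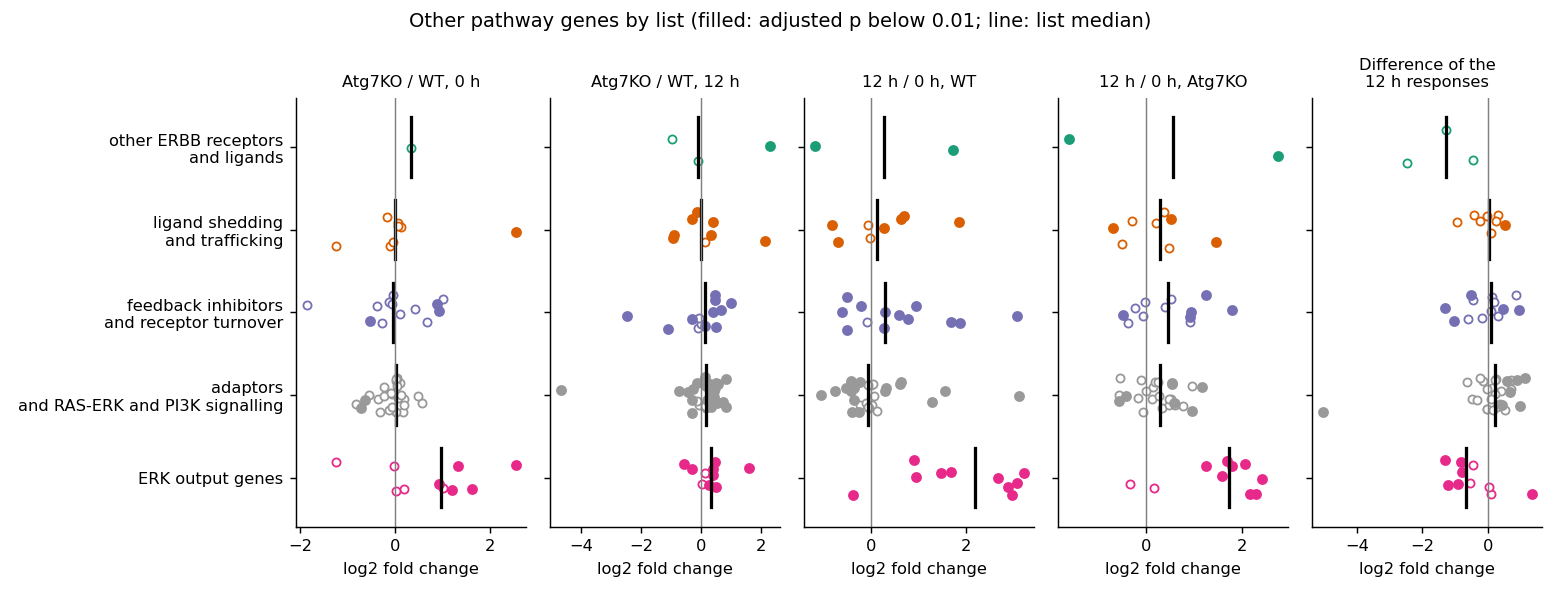
The log2 fold changes (x axes, each with its own range) of the tested genes of the 5 lists in the 4 pairwise comparisons and for the difference of the 12 h responses, with 1 circle per gene, filled where the adjusted p was below 0.01, and a line at each list's median. The ERK output genes lie to the right in both responses, with medians of 2.19 and 1.73.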

How the data were processed

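RNA was sequenced from 12 HLE-B3 libraries, 3 biological replicates in each of 4 groups. Per the submitters' processing notes, the authors aligned reads to GRCh38 with HISAT2 2.0.5 and counted them per gene with featureCounts 1.5.0-p3, and the strand setting is not given in the sources used here. The deposited read counts were used for all tests. The deposited FPKM values, which the authors normalized for gene length and depth, were used for levels. Library totals ranged from 15602183 to 17659496 reads, and intervals on counts cover counting error only.

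Genes were kept by filterByExpr (minimum count 10), scaled by TMM and tested with the quasi-likelihood test of edgeR 4.0.16 in R 4.3.3. Each pairwise comparison used its own 6 libraries, and the difference of the 12 h responses used all 12. A gene passed at a Benjamini-Hochberg adjusted p below 0.01 over all genes tested. DESeq2 1.42.0, limma 3.58.1 on log2(FPKM + 1) and log2(FPKM + 0.1), other scalings and filters, a gene length offset, a replicate block, 1 fit of all 12 libraries and leaving out each library were alternatives. The edgeR, gene length offset, DESeq2 and limma fits were run on simulated counts. Deviations of same-numbered libraries correlated at -0.0691 to 0.0976 (18 pairs, 0 above 0.1), so the numbers were not taken to pair them.

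All 9 members were named. Other pathway genes could be named where they passed with a log2 fold change beyond 1, or were among the 4 with the lowest adjusted p of a list. The second rule was not applied to the adaptors and signal carriers, and not all genes that met a rule are named. Values of STAT3 in WT were added after they were seen. For likeness, the 2 genes with the highest Pearson r over the 12 libraries were named. The members, lists and tests were chosen with earlier results of these data known. GRCh38.p14 promoters came from RefSeq, and no protein sequence was used.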

Additional observations from a re-analysis of the deposited data

Results flagged for a closer look

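The 12 h response of HBEGF differed between the genotypes by a test of the difference itself, -1.38 on the log2 scale (SE 0.128, Atg7KO minus WT, edgeR adjusted p = 3.06e-05), with every treated Atg7KO library below every treated WT library. Of 59 pathway genes tested, 10 had a difference above 0 and 8 a difference below 0 by the same test, against 7.02% and 7.01% of all genes, and 11 of these are named here. Of the adaptors and signal carriers, 6 lay above 0 and 1 below, and they were named only where the difference was beyond 1 in size. The difference was below 0 for ERRFI1 (-1.04), SPRY4 (-1.31), SPRED1 (-0.50), DUSP6 (-1.21), PHLDA1 (-0.83), ETV4 (-0.80) and GRB7 (-5.06, a fitted value on 0 to 1 reads in each Atg7KO_12h library). It was above 0 for SOS1 (1.16), EPHA4 (1.36), RNF41 (0.47) and ADAM10 (0.52), where the gene length offset moved ADAM10 to -0.02. Without Atg7KO_0h replicate 1 the HBEGF difference was -1.29 (edgeR adjusted p = 3.24e-22). The SPRED1 and RNF41 calls were lost without most single libraries (edgeR adjusted p up to 0.0152 and 0.0171), and that of GRB7 without Atg7KO_0h replicate 2 (0.0129). GRB7 passed the filter on low counts only through WT_12h, with 16 to 26 reads per library. The causes were not tested.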

How the results depend on the processing

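Of 641 fold changes of members under the alternatives, 576 kept their direction and their side of the threshold, 23 no longer passed, 28 newly passed and 14 changed direction. Of 1255 fold changes of other named genes, 1175 kept both, 77 no longer passed, 2 newly passed and 1 changed direction. The rises of AREG, and of HBEGF, in each genotype, the 12 h differences of AREG and HBEGF, and the HBEGF difference of the responses kept their direction and passed under every alternative run. Read numbers of ERBB3, EREG, BTC and TGFA limit what depth can show.

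Members passing at 0 h, 1 in the analysis reported, were 2 at an adjusted p below 0.05, with DESeq2, with no filter and with the gene length offset, 0 under the study's thresholds, with limma on log2(FPKM + 1) without a filter and with the replicate block, 3 with 1 fit of all 12 libraries, and 0 to 4 without 1 library each. Pathway genes passing at 0 h, 10 as reported, were 19 at 0.05, 5 under the study's thresholds, 18 with DESeq2, 5 with limma without a filter, 17 with the length offset, 6 with the replicate block, 19 with all 12 libraries, and 3 to 28 without 1 library each. Between the genotypes at 12 h, 7 members became 2 under the study's thresholds and 4 with limma without a filter, and 46 pathway genes became 4 and, with all 12 libraries, 26. In the WT response 7 members became 2 and 45 pathway genes 13 under the study's thresholds. In the Atg7KO response 3 members became 6 at 0.05, 5 with DESeq2, 6 with the length offset, 6 with all 12 libraries, and 3 to 7 without 1 library each. There 23 pathway genes became 11 under the study's thresholds, 15 with the replicate block, 36 with all 12 libraries, and 12 to 44 without 1 library each. For the difference of the responses 1 member became 3 at 0.05, 2 with DESeq2, 2 with no filter, 3 with limma on log2(FPKM + 1) with and without a filter, 2 with the length offset, and 1 to 3 without 1 library each, and 18 pathway genes became 6 under the study's thresholds, 11 with limma without a filter, and 13 to 30 without 1 library each. The highest counts at 0 h, in the Atg7KO response and for pathway genes in the difference came without Atg7KO_0h replicate 1, and the 3 members in the difference without Atg7KO_0h replicate 2. The 3 members passing at 0 h with 1 fit of all 12 libraries included EREG, which had no read in WT_0h. The shares of all genes passing under the alternatives are not given, so these counts describe the members and lists only.

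Changes of direction were few. EGFR moved with the gene length offset to 0.0801 at 0 h, -0.0608 at 12 h and -0.13 in the difference of the responses, and over the libraries left out it ranged from -0.24 to 0.17 at 0 h. The difference of the responses turned on the FPKM scale for ERBB3 (0.21 with a pseudocount of 1, with or without a filter, and 0.21 with 0.1) and EREG (0.51 with or without a filter, and 0.42 with 0.1). Without 1 library each, it ranged from -0.92 to 0.0414 for ERBB3, -1.22 to 0.24 for BTC and -0.17 to 0.0198 for NRG1. None of these differences passed as reported other than EGFR at 12 h. For ADAM10 it was -0.0179 with the length offset. The replicate block changed 1 call among members, ERBB3 at 0 h (-1.58, adjusted p = 0.0106), and the causes were not tested.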
